A study of Mus musculus with 42 samples.

Results

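Calcineurin and its partners were examined through 10 genes chosen by name, of 17173 genes tested: the kinase gene Dyrk1a, the calcineurin inhibitor genes Rcan1 and Rcan2, the transcription factor genes Nfatc1, Nfatc2, Nfatc3 and Nfatc4, and the calcineurin subunit genes Ppp3ca, Ppp3cb and Ppp3r1. Dyrk1a and Rcan1 lie in the segment of chromosome 16 that is triplicated in Ts65Dn mice, a segmental trisomy used as a model of Down syndrome, and the other 8 lie outside it. RNA had been sequenced from 9 primary neuronal cultures of embryonic day 16 forebrain, 3 each of euploid, Ts65Dn and Ts65Dn;Brwd1+/- genotype. ChIP-seq had mapped SMARCA2/4, the ATPases of the chromatin remodeller BAF, in hippocampus of males 6 to 8 weeks old. Each genotype had 4 ChIP and 4 input libraries, and each library pooled the tissue of a pair of animals. Open chromatin had been mapped by ATAC-seq in sorted neuronal (NeuN-positive) nuclei of adult male hippocampus, with 3 libraries per genotype. For both chromatin assays there was 1 pooled peak list per genotype, so none of their values has a replicate error.

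All genotypes shared a mixed background, and came from Ts65Dn mothers mated to Brwd1+/- fathers. The Brwd1 mutation (repro5) is in the germ line and so present in every cell, and the Ts65Dn segment also carries genes of proximal chromosome 17 that have no counterpart on human chromosome 21. The Ts65Dn;Brwd1+/- mice should have 3 copies of Dyrk1a and Rcan1, as Ts65Dn mice do, with 2 working copies of Brwd1.

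Calcineurin is a phosphatase switched on by calcium and calmodulin, built from a catalytic subunit (Ppp3ca or Ppp3cb in brain) and a regulatory subunit (Ppp3r1). It strips phosphate from NFAT proteins, which then enter the nucleus and act on their target genes, while DYRK1A phosphorylates NFAT and helps to send it back to the cytoplasm. RCAN1 and RCAN2 bind calcineurin and restrain it. Because DYRK1A and RCAN1 both oppose NFAT and both lie on human chromosome 21, their joint dosage is a long-standing subject in the study of Down syndrome.

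The labels of the cultures were checked before any comparison. All 9 are labelled as pooled male and female. Xist, the transcript of the inactive X chromosome, was between 0.526 and 1.116 CPM (a gene's count relative to its library's TMM-scaled total) in the 6 euploid and Ts65Dn libraries and between 1409 and 1982 CPM in the 3 cultures labelled Ts65Dn;Brwd1+/-. Summed over 4 Y-linked genes, the level was 193.8 to 223 CPM in the first set and 0.0557 to 0.149 CPM in the second. Thus no library held the mixture its label states, and genotype and sex cannot be told apart in any comparison that uses the cultures labelled Ts65Dn;Brwd1+/-. Brwd1 itself was 89.4 ± 3.66 CPM in euploid, 127 ± 2.13 CPM in Ts65Dn and 138.5 ± 12.3 CPM in the cultures labelled Ts65Dn;Brwd1+/- (SD, n = 3 each), so its level does not set the latter apart from Ts65Dn. Total counts in genes were 17270070 to 25892802 per library. Of 12 pan-neuronal markers, 10 were lower in Ts65Dn than in euploid and none was higher. Their summed level was 5212, 4857 and 4238 CPM in euploid, 2756, 2436 and 1121 CPM in Ts65Dn, and 5728, 4638 and 4735 CPM in the cultures labelled Ts65Dn;Brwd1+/-. Astrocyte markers summed to 6099 to 7103, 8761 to 9842 and 5665 to 6557 CPM in the same order of genotypes, with 7 of 12 markers higher and 2 lower in Ts65Dn than in euploid.

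The regulatory sequences to which the peak data refer are shown first. Rcan1 has 2 transcription starts in RefSeq on the minus strand of chromosome 16, and the downstream start, which lies within the gene and gives the shorter transcript, is known to be driven by NFAT itself. The 250 bases before each start (GRCm38.p6, minus strand) are printed with the NFAT core, GGAAA or its complement TTTCC, in capitals. The first lies at chr16:92466170-92466419 and the second at chr16:92400079-92400328.
Rcan1 upstream start: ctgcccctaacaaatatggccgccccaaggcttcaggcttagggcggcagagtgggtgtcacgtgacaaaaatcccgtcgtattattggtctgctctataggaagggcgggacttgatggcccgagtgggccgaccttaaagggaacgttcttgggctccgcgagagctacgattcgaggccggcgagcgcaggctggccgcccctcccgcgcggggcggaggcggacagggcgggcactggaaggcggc
Rcan1 downstream start: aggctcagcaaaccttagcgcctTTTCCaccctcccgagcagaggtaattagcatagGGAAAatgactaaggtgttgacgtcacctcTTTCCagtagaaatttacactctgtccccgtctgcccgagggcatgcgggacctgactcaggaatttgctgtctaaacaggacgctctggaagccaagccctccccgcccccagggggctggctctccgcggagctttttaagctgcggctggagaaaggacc
The downstream promoter held 3 matches to the core and the upstream promoter held 0. Of all 32851 promoters in the RefSeq table, 55.6% held at least 1 match on either strand within 250 bases of the start and 6.39% held at least 3. Promoters were given for 8 of the 10 genes, and Nfatc2, Nfatc4 and Ppp3cb each had a promoter with 3 matches too. The upstream promoter was the richer in CpG, with 24 CpG and 64.8% G and C against 11 and 56.4%.

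The strongest SMARCA2/4 peak at Dyrk1a in euploid hippocampus lay just before the gene, within a stretch of open chromatin found in neurons of all 3 genotypes. It is shown in capitals within 300 bases of chr16:94569385-94569684 (plus strand, the direction of the gene, GRCm38.p6). The peak itself spans chr16:94569504-94569564.
Dyrk1a upstream region: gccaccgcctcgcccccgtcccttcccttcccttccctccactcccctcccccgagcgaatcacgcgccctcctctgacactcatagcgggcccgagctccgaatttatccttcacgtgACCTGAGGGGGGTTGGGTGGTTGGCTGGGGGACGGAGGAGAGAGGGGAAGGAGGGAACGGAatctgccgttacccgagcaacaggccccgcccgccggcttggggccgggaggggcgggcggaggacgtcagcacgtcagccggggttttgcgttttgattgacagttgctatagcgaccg

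Levels of the pathway's genes were compared between the 3 groups of cultures. In Ts65Dn vs. euploid cultures, the antagonists of calcineurin-NFAT signalling and the NFAT genes were higher. The calcineurin subunit genes were lower relative to all counts but higher relative to the summed pan-neuronal markers, which fell further. Nfatc4 reached the minimum count for testing only through its Ts65Dn libraries, so it is left out of the counts and medians over the genes and described on its own. Of the other 9 genes all passed the test, with 6 higher and 3 lower, where 46.7% of all tested genes passed (25.6% higher and 21.1% lower). The 3 libraries of Ts65Dn did not overlap those of euploid for any of the 9, as for 56.8% of all genes. Thus a call is by itself common in this comparison, and the sizes below say more than the counts. The median log2 fold change was 0.52 over the 9 genes and 0.29 over the 7 outside the segment, against 0.04 over all tested genes.

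**Figure D1:**
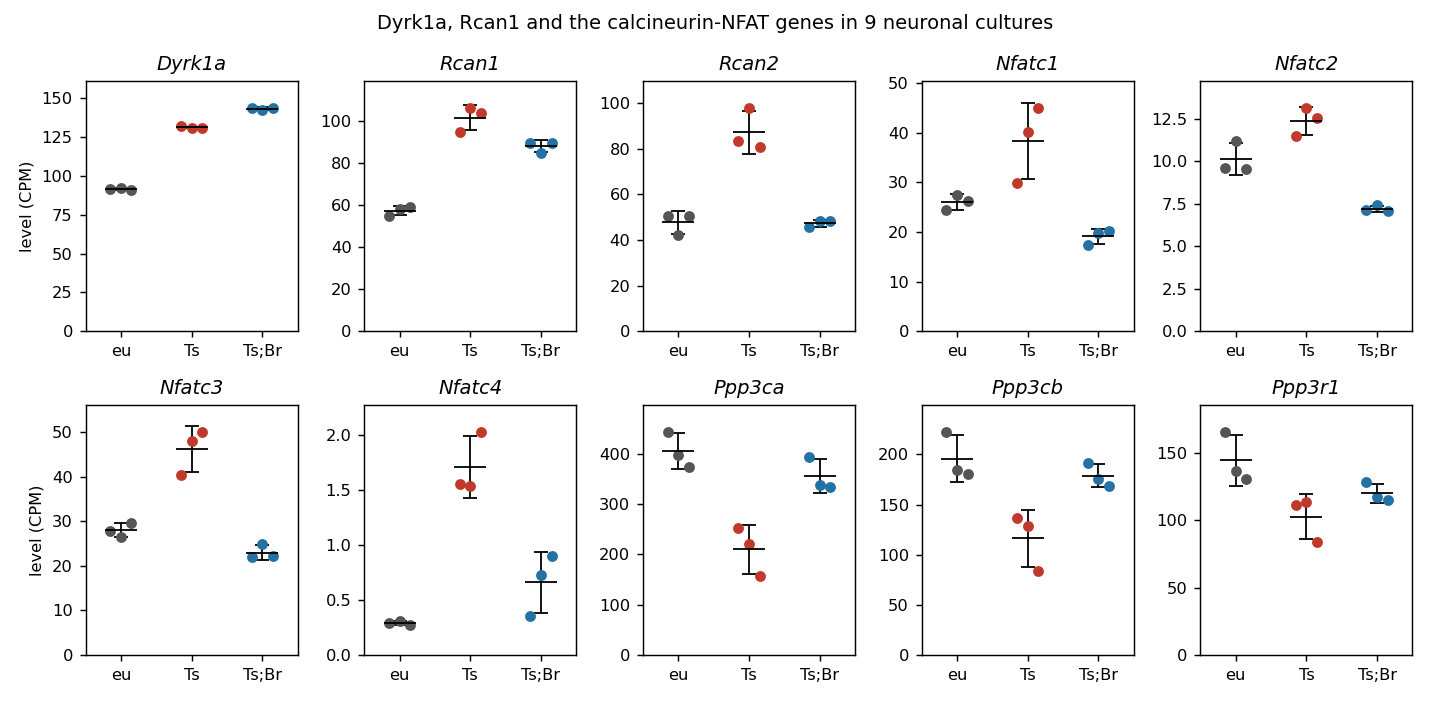
Level of each of the 10 genes (CPM, linear axis from 0) in the 9 cultures, where eu is euploid, Ts is Ts65Dn and Ts;Br is the group labelled Ts65Dn;Brwd1+/-. Points are libraries, and bars give the mean and SD of 3. Relative to all counts Ppp3ca, Ppp3cb and Ppp3r1 are lowest in Ts65Dn. The order turns relative to pan-neuronal markers, whose sum is itself lowest there. Rcan1, Rcan2 and the 4 NFAT genes are highest in Ts65Dn. Dyrk1a is highest in the group labelled Ts65Dn;Brwd1+/- (relative to pan-neuronal markers, in Ts65Dn).

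Dyrk1a (chr16:94570010-94695517, plus strand, mm10) varied less between replicates, relative to its mean, than any of the other 9 genes. Its level was 91.7, 92.2 and 91.2 CPM in the euploid libraries, 131.8, 131 and 131 CPM in Ts65Dn, and 143.6, 142 and 143.8 CPM in those labelled Ts65Dn;Brwd1+/-. The groups were separate in all comparisons, and the SD within a group was below 1 CPM. At 1889 to 3851 counts per library, counting error alone would give a wider spread. The closeness of these replicates is therefore no measure of precision. In Ts65Dn vs. euploid the fold change was 1.43 (95% CI 1.31 to 1.565, edgeR adjusted p = 1.14e-04), and the interval includes the ratio of 1.5 that 3 copies against 2 would give. The corresponding log2 fold change of 0.52 ranked 77th of the 134 tested genes of the triplicated segment, whose median was 0.63 with quartiles at 0.24 and 0.99. In the cultures labelled Ts65Dn;Brwd1+/- vs. euploid the fold change was 1.56 (95% CI 1.43 to 1.71, edgeR adjusted p = 4.68e-05). The difference between these libraries and Ts65Dn missed the threshold, with a log2 fold change of 0.13 ± 0.057 (SE), an interval of -0.0023 to 0.25 and an edgeR adjusted p of 0.0847. DESeq2 (adjusted p = 0.0301) and edgeR with a stricter filter on low counts (adjusted p = 0.0187) both called it.

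Rcan1 (chr16:92391953-92470867, minus strand) rose by more than the copy number. Its level was 54.8, 58.4 and 59.05 CPM in euploid, 94.9, 106.4 and 103.8 CPM in Ts65Dn, and 89.5, 84.9 and 89.8 CPM in the cultures labelled Ts65Dn;Brwd1+/-. No library of a group overlapped those of another. The fold change in Ts65Dn vs. euploid was 1.77 (95% CI 1.59 to 1.97, edgeR adjusted p = 2.05e-05), and the interval lies above 1.5. Its log2 fold change of 0.82 ranked 47th in the segment. In the cultures labelled Ts65Dn;Brwd1+/- the level was lower than in Ts65Dn, by a log2 fold change of -0.21 ± 0.069 (SE, edgeR adjusted p = 0.0251), and still 1.53 times that of euploid (95% CI 1.38 to 1.71, edgeR adjusted p = 1.70e-04). The call against Ts65Dn was lost in 6 of 17 alternative fits, with adjusted p up to 0.204. These included the fits without Ts65Dn replicate 2, without Ts65Dn replicate 3, and without replicate 1 or 2 of the group labelled Ts65Dn;Brwd1+/-.

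Rcan2 (chr17:43801351-44039516, plus strand), the paralogue of Rcan1 outside the triplicated segment, rose in Ts65Dn and was lower again in the third genotype, where it overlapped euploid. It measured 50.6, 41.9 and 50.5 CPM in euploid, 83.1, 97.8 and 80.5 CPM in Ts65Dn, and 45.5, 48.3 and 48.1 CPM in the cultures labelled Ts65Dn;Brwd1+/-. The Ts65Dn libraries were all above the other 6, which overlapped each other. The log2 fold change was 0.87 ± 0.099 in Ts65Dn vs. euploid (SE, edgeR adjusted p = 1.29e-04) and -0.88 ± 0.099 in the cultures labelled Ts65Dn;Brwd1+/- vs. Ts65Dn (edgeR adjusted p = 4.43e-05). Against euploid the latter differed by -0.01, with a 95% interval of -0.23 to 0.21. As a share of the summed length-corrected level of Rcan1 and Rcan2, Rcan1 was 63.1% ± 2.97 in euploid, 62.4% ± 2.05 in Ts65Dn and 72.5% ± 1.13 in the cultures labelled Ts65Dn;Brwd1+/- (SD, n = 3 each). The share in the last group, from 71.4 to 73.6%, lay above all other libraries.

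The NFAT genes encode the calcium-regulated transcription factors themselves. Nfatc3 (chr8:106058840-106130537, plus strand), the family member most often described in neurons beside Nfatc4, was 27.9, 26.4 and 29.6 CPM in euploid, 40.5, 48.1 and 50.2 CPM in Ts65Dn, and 21.9, 24.8 and 22.2 CPM in the cultures labelled Ts65Dn;Brwd1+/-. Ts65Dn stood above euploid in all 3 libraries, with a log2 fold change of 0.73 ± 0.096 (SE, edgeR adjusted p = 3.21e-04). The cultures labelled Ts65Dn;Brwd1+/- fell by 1.01 on the log2 scale against Ts65Dn (edgeR adjusted p = 1.65e-05). They were below euploid in every library, but this difference of -0.29 narrowly missed the threshold (edgeR adjusted p = 0.0509) and passed it in 8 of 17 alternative fits. Exons of Nfatc3 share 1.87% of their bases with the antisense gene Esrp2, and whether the counting used strand is not given in the sources used here.

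Nfatc1 (chr18:80606205-80713071, minus strand), known for its part in lymphocytes, bone and heart valves, was 24.4, 27.5 and 26.3 CPM in euploid, 29.9, 40.2 and 45.1 CPM in Ts65Dn, and 17.4, 19.8 and 20.3 CPM in the cultures labelled Ts65Dn;Brwd1+/-. The Ts65Dn libraries spread more than those of the other groups but did not overlap them. The log2 fold change was 0.56 ± 0.14 in Ts65Dn vs. euploid (SE, edgeR adjusted p = 0.00804) and -1.004 ± 0.14 against Ts65Dn in the third genotype (edgeR adjusted p = 1.76e-04). Against euploid, the cultures labelled Ts65Dn;Brwd1+/- were lower by a log2 fold change of -0.45 (edgeR adjusted p = 0.0357). That call was lost when any euploid library, any library labelled Ts65Dn;Brwd1+/- or Ts65Dn replicate 2 was left out, with adjusted p up to 0.0985.

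Nfatc2 (chr2:168476410-168601657, minus strand), best known from T cells, was 9.61, 11.2 and 9.56 CPM in euploid, 11.5, 13.1 and 12.5 CPM in Ts65Dn, and 7.13, 7.41 and 7.09 CPM in the cultures labelled Ts65Dn;Brwd1+/-. The smallest distance between groups was that of euploid and Ts65Dn, with a log2 fold change of 0.29 ± 0.097 (SE, edgeR adjusted p = 0.0321). This call was lost in 11 of 17 alternative fits, among them DESeq2 and the fits without euploid replicate 1 or 3, without Ts65Dn replicate 2 or 3, or without any single library labelled Ts65Dn;Brwd1+/-, with adjusted p up to 0.174. The cultures labelled Ts65Dn;Brwd1+/- were lower than Ts65Dn by -0.78 (edgeR adjusted p = 1.03e-04) and lower than euploid by -0.49 (edgeR adjusted p = 0.00494) in log2 fold change, and these calls held in all 17 alternatives.

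Nfatc4 (chr14:55823144-55833943, plus strand) was barely detected. It had 6, 7 and 6 counts in the euploid libraries, 38, 31 and 46 in Ts65Dn, and 8, 13 and 24 in the cultures labelled Ts65Dn;Brwd1+/-. This is 0.291 ± 0.0170, 1.70 ± 0.282 and 0.659 ± 0.275 CPM (SD, n = 3 each). The fold change of Ts65Dn vs. euploid was 5.78 with a 95% interval of 3.48 to 9.60, and since the gene entered the test through Ts65Dn it had to differ. The same holds for its lower level in the cultures labelled Ts65Dn;Brwd1+/- than in Ts65Dn (log2 fold change -1.35), so neither difference is evidence by itself. The excess of these cultures over euploid (edgeR adjusted p = 0.0432) was lost in 8 of 15 alternative fits, among them DESeq2 and the fits that left out any single euploid library, Ts65Dn replicate 1 or 2, or replicate 2 or 3 of their own group.

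Calcineurin moved the opposite way. Ppp3ca (chr3:136670124-136937727, plus strand), the main catalytic subunit in brain, was 444.6, 399 and 374 CPM in euploid, 252, 222 and 156 CPM in Ts65Dn, and 394, 339 and 335 CPM in the cultures labelled Ts65Dn;Brwd1+/-. Every Ts65Dn library was below the other 6. The log2 fold change was -0.95 ± 0.16 in Ts65Dn vs. euploid (SE, edgeR adjusted p = 0.00116), a fold of 0.517 with a 95% interval of 0.405 to 0.661. It was 0.76 ± 0.16 in the cultures labelled Ts65Dn;Brwd1+/- vs. Ts65Dn (edgeR adjusted p = 0.00224). Against euploid these libraries overlapped, at -0.19 with an interval of -0.54 to 0.16.

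Ppp3cb (chr14:20499364-20546573, minus strand), the second catalytic subunit, was the lower of the pair. It was 223, 184 and 180.4 CPM in euploid, 137, 128 and 83.8 CPM in Ts65Dn, and 192, 176 and 169 CPM in the cultures labelled Ts65Dn;Brwd1+/-. The log2 fold change was -0.75 ± 0.17 in Ts65Dn vs. euploid (SE, edgeR adjusted p = 0.00467) and 0.62 ± 0.16 in the third genotype vs. Ts65Dn (edgeR adjusted p = 0.00875). Of the summed length-corrected level of both catalytic subunits, Ppp3ca made up 64.7% ± 0.916 in euploid, 61.5% ± 0.966 in Ts65Dn and 63.7% ± 0.757 in the cultures labelled Ts65Dn;Brwd1+/- (SD, n = 3 each), and the 3 Ts65Dn libraries lay below all others.

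Ppp3r1 (chr11:17159263-17200375, plus strand), the regulatory subunit that binds calcium, was 166, 137 and 131 CPM in euploid, 111, 113 and 83.8 CPM in Ts65Dn, and 128, 117 and 115 CPM in the cultures labelled Ts65Dn;Brwd1+/-. Its log2 fold change in Ts65Dn vs. euploid was -0.49 ± 0.13 (SE, edgeR adjusted p = 0.0105). Between Ts65Dn and the cultures labelled Ts65Dn;Brwd1+/- the groups did not overlap, yet the difference of 0.23 missed the threshold (edgeR adjusted p = 0.156, 95% interval -0.059 to 0.51). Its exons share 14.3% of their bases with Wdr92, so a part of its reads could have been assigned to neither gene.

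The calcineurin subunits varied with the pan-neuronal markers. Glutamatergic markers summed to 1142 to 1469, 353 to 788 and 1143 to 1529 CPM in euploid, Ts65Dn and the cultures labelled Ts65Dn;Brwd1+/-, and GABAergic markers to 679 to 738, 184.5 to 279 and 1111 to 1233 CPM. In the last group every GABAergic sum was above euploid, whereas the means of Ppp3ca, Ppp3cb and Ppp3r1 were below it, with ranges that overlapped or lay lower. The part of these cell types in the calcineurin values was not tested. In bulk cultures, fewer neurons and less RNA per neuron cannot be told apart. Ts65Dn replicate 3 had the lowest summed pan-neuronal level, 1121 CPM, and the lowest Ppp3ca, Ppp3cb and Ppp3r1 of all 9 libraries. Without it, the log2 fold changes in Ts65Dn vs. euploid were -0.78 for Ppp3ca, -0.56 for Ppp3cb and -0.36 for Ppp3r1, and all 3 still passed. Set against the pan-neuronal sum, the direction turned. That sum was itself lowest in Ts65Dn, so any gene that fell less than the sum rises on this scale. All 10 genes were higher than in euploid on it, and the turn is no measure of calcineurin per neuron. Ppp3ca was 8.52% ± 0.304 of that sum in euploid, 10.7% ± 2.78 in Ts65Dn and 7.09% ± 0.209 in the cultures labelled Ts65Dn;Brwd1+/- (SD, n = 3 each). For Ppp3cb the shares were 4.11% ± 0.272, 5.90% ± 1.37 and 3.57% ± 0.221, and for Ppp3r1 they were 3.03% ± 0.191, 5.39% ± 1.84 and 2.40% ± 0.144 (SD, n = 3 each). All 3 Ts65Dn libraries lay above all euploid libraries in these shares. On the same scale Dyrk1a was 1.94% ± 0.199 in euploid, 7.28% ± 3.82 in Ts65Dn and 2.87% ± 0.315 in the cultures labelled Ts65Dn;Brwd1+/- (SD, n = 3 each), and so was highest in Ts65Dn. Rcan1 was 1.22% ± 0.171, 5.69% ± 3.13 and 1.76% ± 0.177, and Nfatc3 was 0.592% ± 0.0911, 2.64% ± 1.61 and 0.462% ± 0.0767 (SD, n = 3 each). Rcan2 and the other NFAT genes were also highest in Ts65Dn on it. These Ts65Dn means rest in part on replicate 3. Without it, a choice made after seeing the data, they were 5.08% for Dyrk1a, 3.91% for Rcan1, 1.72% for Nfatc3 and 1.37% instead of 2.25% for Nfatc1, all still above euploid. For Ppp3ca, Ppp3cb and Ppp3r1 the means without it were 9.12%, 5.12% and 4.34%, against 8.52%, 4.11% and 3.03% in euploid. The part of neuronal content in the lower calcineurin levels was not tested.

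**Figure D2:**
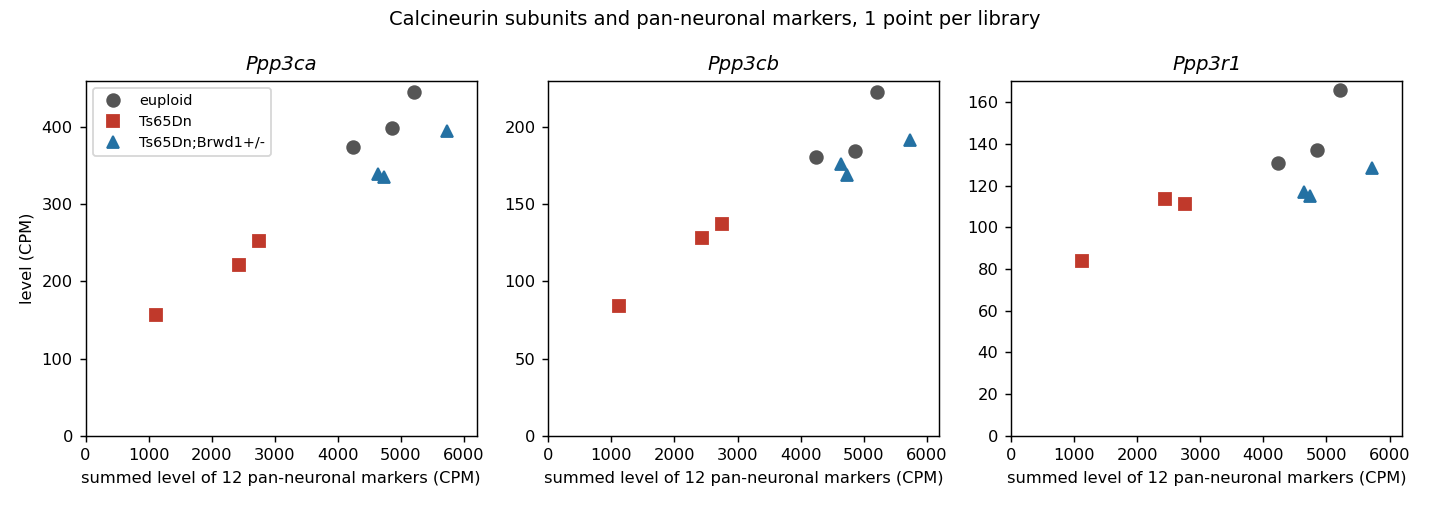
Level of the 3 calcineurin subunit genes (CPM) against the summed level of 12 pan-neuronal markers (CPM), with 1 point per culture library, both axes linear from 0. The Ts65Dn libraries lie at 1121 to 2756 CPM of markers and are lowest in all 3 genes, although highest when each gene is divided by the marker sum, and the other 6 lie at 4238 to 5728 CPM.

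Markers of other cells also differed between the groups of cultures. Markers of meninges and fibroblasts summed to 418 to 540 CPM in euploid, 896 to 1448 CPM in Ts65Dn and 247 to 303 CPM in the cultures labelled Ts65Dn;Brwd1+/-, which is the order of Nfatc1, Nfatc2 and Nfatc3. Of these 12 markers 8 were higher and 4 lower in Ts65Dn than in euploid, Dcn being among the lower. Another of the 4, Lum, was at 0.489 CPM in euploid, 0.0896 in Ts65Dn and 0.177 in the third group. Lum reached the minimum count for testing only through euploid, so its lower level in Ts65Dn is not evidence by itself. Endothelial and pericyte markers summed to 137 to 159, 730.1 to 962 and 136 to 186 CPM in the same order of genotypes, and Kdr alone gave 83.1 ± 4.37, 755 ± 103.5 and 112 ± 23.1 CPM of them (SD, n = 3 each). Of the 5 such markers tested, Kdr and Pdgfrb were higher in Ts65Dn than in euploid, Pecam1 (-0.78), Flt1 (-0.32) and Rgs5 (-0.05) were not called, and Cldn5 was at 0 in every library. Dividing-cell markers summed to 277 to 290, 373 to 437 and 613 to 632 CPM, the order of Dyrk1a. Oligodendrocyte markers summed to 362 to 415, 613 to 714 and 958 to 1160 CPM, and microglial markers to 27.1 to 38.8, 44.9 to 55.0 and 18.4 to 25.2 CPM. Their part in these results was not tested.

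In the cultures labelled Ts65Dn;Brwd1+/- vs. Ts65Dn, 7 of the 9 genes other than Nfatc4 passed, where 58.1% of all tested genes passed (27.6% higher and 30.5% lower). Ppp3ca and Ppp3cb were higher relative to all counts but lower relative to the summed pan-neuronal markers, which rose more. Rcan1, Rcan2, Nfatc1, Nfatc2 and Nfatc3 were lower. The groups did not overlap for any of the 9, as for 68.4% of all genes. The median log2 fold change was -0.21 over the 9 genes and 0.00 over all genes. The 2 comparisons share the Ts65Dn libraries, so that chance deviations of Ts65Dn enter both with opposite sign. Of the same 9 genes, 4 passed between cultures labelled Ts65Dn;Brwd1+/- and euploid, where 29.2% of all genes did. Dyrk1a and Rcan1 were higher, where 14% of genes were, and Nfatc1 and Nfatc2 were lower, where 15.2% were. The groups did not overlap for 6 of the 9 and for 45.9% of all genes. The count of 4 became 7 when a residual factor was added to the fit and ranged from 3 to 6 when single libraries were left out.

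**Figure D3:**
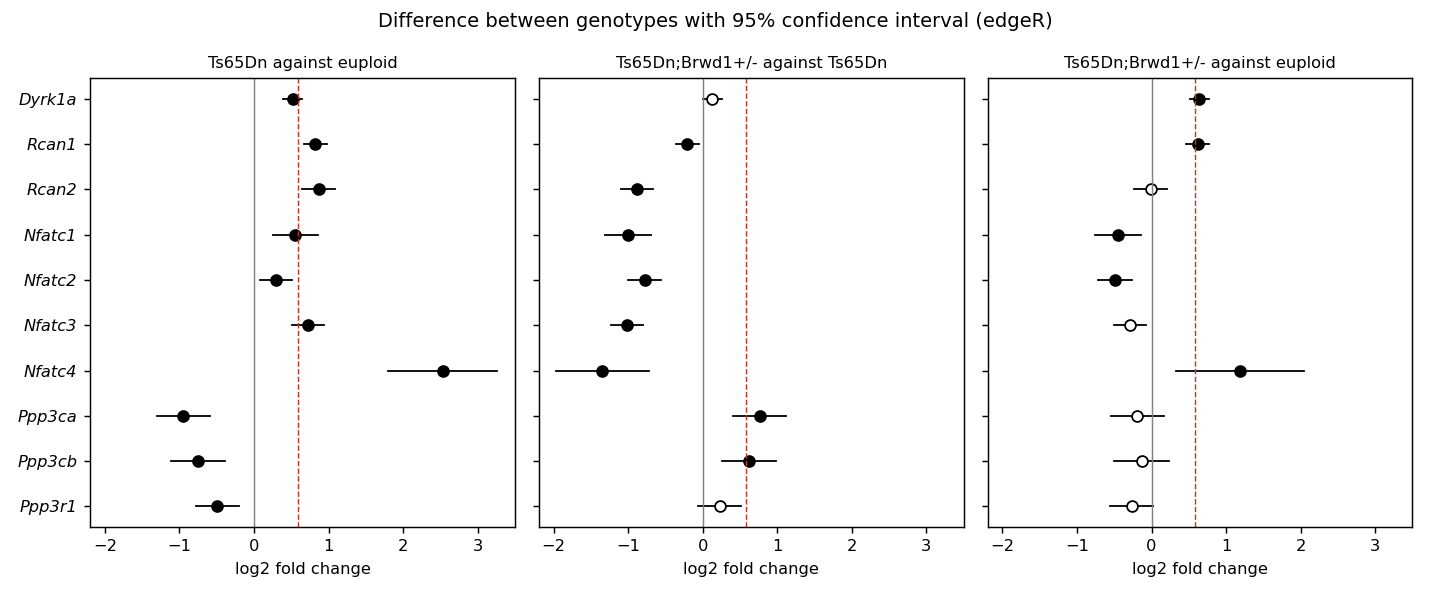
Log2 fold change of the 10 genes in the 3 comparisons, with 95% confidence intervals from edgeR. Filled points passed an adjusted p of 0.05 and open points did not, the grey line marks no difference, and the dashed red line marks the ratio of 3 copies to 2 at 0.585. Dyrk1a and Rcan1 are above 0 against euploid in both trisomic groups. Nfatc1, Nfatc2 and Nfatc3 lie on opposite sides of 0 in the first and second panels, which share the Ts65Dn libraries. Nfatc4 does so too, but it entered the test only through Ts65Dn.

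Levels can be ranked between genes only per length of exon. On the scale of CPM per kilobase of exon, the order in euploid was Ppp3r1 (44.8), Ppp3ca (40.6), Ppp3cb (22.2), Rcan1 (18.6), Dyrk1a (11.1), Rcan2 (10.9), Nfatc1 (3.49), Nfatc3 (2.38), Nfatc2 (0.957), with Nfatc4 last. The ranges of Ppp3r1 and Ppp3ca overlapped, as did those of Dyrk1a and Rcan2, and all other neighbours were separate. In Ts65Dn, Rcan1 came first at 33.0 ± 1.95 CPM per kilobase, with a range that overlapped that of Ppp3r1 at 31.8 ± 5.10 (SD, n = 3 each). There, Rcan2 at 19.9 ± 2.13 overlapped Ppp3ca at 21.03 ± 4.90. Ppp3r1 and Ppp3ca led again in cultures labelled Ts65Dn;Brwd1+/-, at 37.2 ± 2.23 and 35.7 ± 3.33, followed by Rcan1 at 28.6 ± 0.895 CPM per kilobase.

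The members also differed in which of them varied together over the 9 libraries, which share genotype differences and cell content. By Pearson's r of log2 CPM, Ppp3ca and Ppp3cb were alike (0.988), as were Nfatc1 and Nfatc3 (0.951), and Rcan2 went with Nfatc3 (0.932). Dyrk1a went with Rcan1 (0.899) and with none of Nfatc1, Nfatc2 and Nfatc3 (-0.13, -0.31 and 0.06). The genes most like Dyrk1a were Gm5436 (0.993), Gm13328 (0.989), Bcas1 (0.988), Bub1 (0.986) and Pcna-ps2 (0.985), and those most like Rcan1 were Kat14, Spon1 (both 0.995), Pcdhga5 (0.992), Zfp503 (0.991) and Ifnar1 (0.990). Of these 10, Ifnar1 lies in the triplicated segment.

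The other genes of the pathway are given by lists, and each count is to be read against the share of all tested genes called: 46.7% in Ts65Dn vs. euploid, 58.1% for the cultures labelled Ts65Dn;Brwd1+/- vs. Ts65Dn and 29.2% for these vs. euploid. All values are relative to all counts, and the pan-neuronal markers had a median log2 fold change of -1.25 in Ts65Dn vs. euploid. The part of neuronal content in the lists was not tested.

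Among inhibitors, anchors and binding proteins of calcineurin other than the RCAN1 and RCAN2 genes, 5 of 8 genes passed in Ts65Dn vs. euploid (46.7% of all genes), 4 of them lower (21.1% of all genes). Akap5, which anchors calcineurin at the postsynaptic membrane, had a log2 fold change of -1.02 and Chp1, a calcineurin-like calcium-binding protein, one of -0.60, while Cib1, another calcium-binding protein, was higher at 0.61. Against Ts65Dn, in cultures labelled Ts65Dn;Brwd1+/-, 3 were higher and 1 was lower, with Akap5 at 1.13, Cib1 at -0.82 and Rcan3, the third RCAN gene, at 0.47. Rcan3 did not pass in Ts65Dn vs. euploid (-0.23, edgeR adjusted p = 0.054), so of the RCAN family Rcan1 and Rcan2 were called there. Chp1 (-0.51) and Ppia (0.26) were called between cultures labelled Ts65Dn;Brwd1+/- and euploid. That count of 2 became 1 or 3 in 10 alternatives, among them those without any single euploid library, without Ts65Dn replicate 1 or 2 and without replicate 2 or 3 of the cultures so labelled.

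Kinases that counter calcineurin were called in both directions. Of the DYRK family and partners of DYRK1A, Dyrk2 (-0.68) and Dcaf7 (-0.47), a scaffold of DYRK1A, were lower among 5 tested genes (21.1% of all genes) and none was higher (25.6%). In the cultures labelled Ts65Dn;Brwd1+/- vs. Ts65Dn, Dyrk2 (0.51) and Dcaf7 (0.28) were higher, and Dyrk3 (-0.37) and Lin52, a subunit of the DREAM complex (-0.30), were lower. Dyrk3 was also lower than in euploid (-0.50), and a second gene was called there by DESeq2, with a residual factor, at an adjusted p of 0.1 and without euploid replicate 3. Of the kinases that drive NFAT export, 3 of 6 were lower in Ts65Dn (21.1% of all genes) and 1 was higher (25.6%), with Csnk1e at -0.59, Gsk3b at -0.45 and Gsk3a at -0.33. Cultures labelled Ts65Dn;Brwd1+/- had 4 of 6 higher than Ts65Dn and 1 lower, led by Csnk1e (1.13), Gsk3a (0.50) and Gsk3b (0.39), and Csnk1e alone was called against euploid (0.54).

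Of the genes for calcium entry and release, 4 of 16 were higher and 6 lower in Ts65Dn vs. euploid, where 25.6% and 21.1% of all genes were. The lower included the NMDA receptor subunits Grin1 (-1.56) and Grin2b (-1.34), and Itpr2, a channel of the endoplasmic reticulum, was higher (1.61). Relative to Ts65Dn, in cultures labelled Ts65Dn;Brwd1+/-, 5 were higher and 6 lower, with Grin2b at 1.24, Orai3, a store-operated channel, at -1.23 and Grin1 at 1.09. Against euploid 6 passed, with Itpr2 at 0.91, Itpr1 at -0.65 and Orai3 at -0.51.

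Genes reported elsewhere as targets of NFAT or calcineurin were tested in 10 cases. Ptgs2, the inducible cyclooxygenase, reached the minimum count only through its Ts65Dn libraries and is left out of the counts. Of the other 9, 5 were higher and 2 lower in Ts65Dn than in euploid, where 25.6% and 21.1% of all genes were, and the median log2 fold change was 0.63 against 0.04 over all genes. Among the higher, Ccnd1, which encodes cyclin D1, had a log2 fold change of 1.80, from 60.2 ± 4.06 to 209.9 ± 29.97 CPM (SD, n = 3 each, edgeR adjusted p = 2.53e-06), and Egr2, an immediate early gene, one of 1.68. Set against Ts65Dn, cultures labelled Ts65Dn;Brwd1+/- had 7 of the 9 lower and 1 higher, where 30.5% and 27.6% of all genes were, with a median of -0.85. Cdkn1a, a cell cycle inhibitor (-1.31), was among the lower. Against euploid 4 passed, 2 in each direction, with Bdnf at -1.18, Egr2 at 0.85 and Ccnd1 at 0.66. Bdnf, the neurotrophin, was not called in Ts65Dn vs. euploid (-0.22, edgeR adjusted p = 0.273).

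Nuclear partners of NFAT were called in both directions. Fos, the AP-1 subunit (1.15), and Junb (0.69) were higher in Ts65Dn than in euploid, and Mef2c, a neuronal transcription factor (-1.35), was lower. In all 4 of 9 were higher and 3 lower, where 25.6% and 21.1% of all genes were. Against Ts65Dn, in cultures labelled Ts65Dn;Brwd1+/-, 3 were higher and 4 lower, with Junb at -1.47, Fos at -1.35 and Mef2c at 1.18, and Junb was also lower than in euploid (-0.78).

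Genes for substrates of DYRK1A were mixed as well. Of 9, 3 were higher and 4 lower in Ts65Dn than in euploid (25.6% and 21.1% of all genes), with Ccnd1 at 1.80, the endocytic GTPase gene Dnm1 at -1.58 and Mapt, which encodes tau, at -1.42. Between cultures labelled Ts65Dn;Brwd1+/- and Ts65Dn, 4 were higher and 4 lower in the former, with Dnm1 at 1.52, Mapt at 1.41 and Ccnd1 at -1.15. Against euploid Ccnd1 (0.66), Foxo1, a transcription factor (-0.55) and Synj1 (0.47) passed. Synj1, a synaptic phosphatase gene inside the triplicated segment, had a log2 fold change of -0.38 in Ts65Dn vs. euploid (edgeR adjusted p = 0.0732).

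Chromatin at these genes was then followed in adult hippocampus, a different tissue and age from the cultures. In the SMARCA2/4 lists, 35 of 22667 euploid peaks named one of the 10 genes, against 1 of 1290 in Ts65Dn and 2 of 1873 in Ts65Dn;Brwd1+/-. Thus 7, 1 and 2 of the 10 genes were named, where 29.3%, 3.24% and 3.7% of all protein-coding genes were. The trisomic lists held 5.69% and 8.26% as many peaks as the euploid list, and the share naming the 10 genes was 0.154%, 0.0775% and 0.107%. The depth of these libraries is unknown, so a peak missing from a list was not detected there and may be bound. In neuronal ATAC-seq, 6 of 15521, 13 of 29195 and 18 of 30244 peaks named the genes in euploid, Ts65Dn and Ts65Dn;Brwd1+/-, and 5, 6 and 6 genes were named, where 41.1%, 51.9% and 51.8% of protein-coding genes were. With a fold enrichment of at least 4 required, the ATAC-seq peaks were 5, 8 and 6, so that the order of the trisomic lists turned, and the SMARCA2/4 peaks were 12, 0 and 0.

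**Figure D4:**
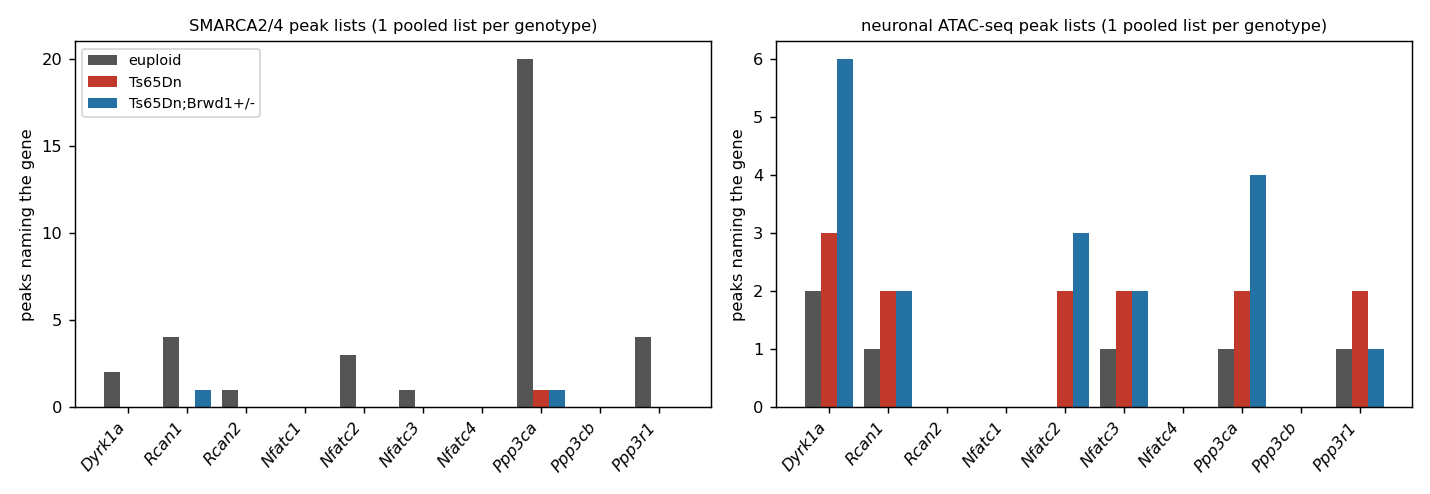
Number of peaks naming each of the 10 genes in the SMARCA2/4 lists (left) and the neuronal ATAC-seq lists (right), with 1 bar per pooled list and the axes starting at 0. Ppp3ca has 20 SMARCA2/4 peaks in euploid and 1 in each of the others, and Dyrk1a has 2, 3 and 6 ATAC-seq peaks in euploid, Ts65Dn and Ts65Dn;Brwd1+/-.

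Ppp3ca carried most of the euploid SMARCA2/4 peaks, 20 of the 35, with fold enrichments over background from 2.61 to 5.44. A q-value under 0.05 was given to 15 of the 20. By place, 15 of the 20 had their middle in introns, 4 lay upstream of the gene and 1 lay in an untranslated exon. The strongest, at chr3:136833444-136833515, was intronic, at -1214 bases from the start that the list measures from. The peak at chr3:136837487-136837543 in Ts65Dn (3.99-fold, q = 0.0903) and that at chr3:136830825-136830873 in Ts65Dn;Brwd1+/- (3.802-fold, q = 0.0673) overlapped none of them. Ppp3r1 had 4 euploid peaks, 2 of them at the start of the gene at chr11:17159027-17159147 (2.64-fold) and chr11:17159214-17159341 (4.97-fold), and the strongest at chr11:17159878-17160187 (5.03-fold). Nfatc2 had 3, with the strongest in its first coding exon at chr2:168601401-168601555 (4.10-fold). Nfatc3 had 1 in an intron, 432 bases after a start, at chr8:106060009-106060121 (4.02-fold). Rcan2 had 1, at an internal start, at chr17:43953016-43953076 (4.47-fold). None of these was found in a trisomic list.

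Rcan1 had SMARCA2/4 peaks at both of its starts. In euploid, 3 lay 233 to 1136 bases after the upstream start, with fold enrichments of 3.77, 3.92 and 3.43, and the fourth and strongest, at chr16:92400118-92400190 (4.67-fold, q = 4.20e-05), lay 40 to 112 bases before the downstream start, within the promoter printed above. The Ts65Dn;Brwd1+/- list had a peak there too, at chr16:92400026-92400129 (3.56-fold, q = 0.0838), which overlapped the euploid peak by 12 bases. It was the only 1 of the 35 euploid peaks overlapped in a trisomic list, where 2.67% of all euploid peaks were found in Ts65Dn and 3.82% in Ts65Dn;Brwd1+/-. In neurons, open chromatin was found at the upstream start in all 3 lists (5.62-, 6.27- and 4.37-fold in euploid, Ts65Dn and Ts65Dn;Brwd1+/-), and no ATAC-seq peak was listed at the downstream start in any. An intronic ATAC-seq peak, 15606 to 15902 bases after the upstream start, was listed in Ts65Dn (2.82-fold, chr16:92450357-92450563) and Ts65Dn;Brwd1+/- (2.33-fold, chr16:92450267-92450551).

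**Figure D5:**
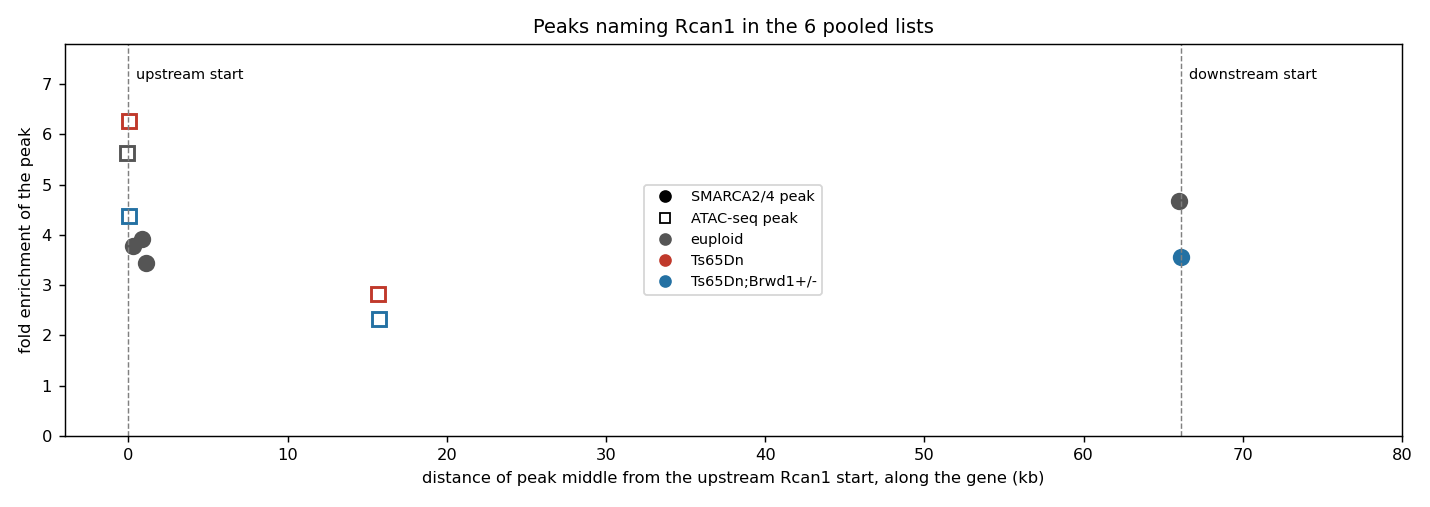
Fold enrichment of every listed peak naming Rcan1 against the distance of its middle from the upstream start along the gene (kb), with circles for SMARCA2/4, open squares for neuronal ATAC-seq, and colours for the 3 genotypes. ATAC-seq squares stand at the upstream start in all 3 genotypes, and SMARCA2/4 circles of euploid and Ts65Dn;Brwd1+/- stand at the downstream start.

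At Dyrk1a, euploid SMARCA2/4 peaks were at the printed upstream site (5.03-fold, q = 1.25e-05) and in an intron at chr16:94574883-94574961 (3.27-fold, q = 0.054). The upstream site fell within an ATAC-seq peak of every genotype, of 5.065-fold in euploid (chr16:94569303-94569767), 5.45-fold in Ts65Dn (chr16:94568953-94570180) and 4.68-fold in Ts65Dn;Brwd1+/- (chr16:94568968-94570121). An intronic site, 61255 bases from the start in the euploid list, was also open in all 3, with 3.62-, 4.78- and 4.96-fold enrichment, at chr16:94632049-94632276 in euploid. A peak at the second start, chr16:94570386-94570902, was listed in Ts65Dn;Brwd1+/- (2.37-fold).

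All 6 euploid ATAC-seq peaks of these genes were found in both trisomic lists, as were 96.7% and 96.2% of all euploid peaks. For the 5 promoter peaks among them, the fold enrichment in Ts65Dn relative to euploid was 1.28 at Nfatc3, 1.203 at Ppp3r1, 1.116 at Rcan1, 1.075 at Dyrk1a and 0.90 at Ppp3ca, with a median of 1.116 against 1.235 over all 10338 promoter peaks found in both lists. At Ppp3ca 1.35% of those promoter peaks had a lower ratio. In Ts65Dn;Brwd1+/- the ratios were 1.16 at Ppp3r1, 1.035 at Nfatc3, 0.962 at Ppp3ca, 0.924 at Dyrk1a and 0.777 at Rcan1, with a median of 0.962 against 1.05 over 10303 promoter peaks, and 1.23% of these had a lower ratio than Rcan1. Nfatc2 had an ATAC-seq peak at its start in Ts65Dn (3.79-fold, chr2:168601195-168601752) and Ts65Dn;Brwd1+/- (3.24-fold, chr2:168601263-168601796) and none in euploid. These are values of 1 pooled list each, and the trisomic lists held 188% and 195% as many peaks as the euploid list.

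Nfatc1, Nfatc4 and Ppp3cb were named by no peak in any list. By position, however, the start of Ppp3cb was covered by a euploid SMARCA2/4 peak (2.98-fold, chr14:20546139-20546225) and by an ATAC-seq peak of 4.19-, 6.42- and 4.885-fold in euploid, Ts65Dn and Ts65Dn;Brwd1+/-, which the lists assign to 1810062O18Rik, its neighbour.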

How the data were processed

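Read counts per gene of 9 culture libraries were used as the authors deposited them, raw and not normalised. Per the methods and labels, reads were aligned to mm10 with HISAT2 and counted with featureCounts on Ensembl genes, although each file closes with the 5 summary lines of htseq-count, which took 37.4 to 40.0% of all counts and were left out. Strand handling is not given in the sources used here. The authors deposited 6 peak lists, 1 per genotype and assay, called with MACS, each peak with a fold enrichment (a linear ratio) and a q-value. How replicates were pooled is not given.

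The 17173 genes kept by filterByExpr were fitted together over all 9 libraries with edgeR 4.0.16 (TMM, quasi-likelihood F-test, genotype as the only factor), with Benjamini-Hochberg adjustment over all tested genes and a threshold of 0.05. A gene counted as passing only through 1 genotype where fewer than 3 libraries of the others reached filterByExpr's minimum. The study used DESeq2 with a threshold of 0.1 and a residual factor, which were run as alternatives. CPM values were scaled by TMM. The labels do not tie libraries to separate animals, so p-values measure the spread between these libraries. The labels number replicates 1 to 3 in every genotype. Deviations of same-numbered euploid and Ts65Dn libraries correlated at 0.129, 0.206 and 0.263, so that the numbers were taken to pair these, from the data alone, and not the third genotype. Replicates differed by 4.05 to 51.1 in chi-square per gene, beyond counting error. Peaks naming a gene were taken from the lists' own assignment. They count as shared if they overlap by at least 1 bp. Gene positions came from GENCODE (mm10), promoters and sequence from RefSeq (GRCm38.p6), with list coordinates read as 1-based.

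The genes and lists were chosen with earlier results of these data known. In each pathway list, up to 3 called genes with the largest absolute log2 fold change were named per comparison. Some genes that this rule would name are not reported here. The fit was tested on simulated counts with known changes.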

Additional observations from a re-analysis of the deposited data

How the results depend on the processing

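Over the 9 genes without Nfatc4, 8 to 9 were called in Ts65Dn vs. euploid and 6 to 8 in the cultures labelled Ts65Dn;Brwd1+/- vs. Ts65Dn across 18 alternatives. Against euploid, 4 became 7 with 1 residual factor and 3 to 6 when each library was left out. With Nfatc4, which the filter favoured, the last count of 5 was 8 with 1 residual factor and ranged from 3 to 7 when each library was left out, with 3 without any single euploid library, without Ts65Dn replicate 2 and without replicate 3 of the group labelled Ts65Dn;Brwd1+/-. The causes were not tested. Of 506 recomputed log2 fold changes of the 10 genes, 458 kept direction and side of the threshold, 32 no longer passed, 14 newly passed and 2 changed sign. The latter were Rcan2 in the third genotype vs. euploid with at least 10 counts in every library (0.00083) and without euploid replicate 1 (0.0327), and over the leave-one-out fits its value ran from -0.09601 to 0.0327.

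Over all 9 same-number pairs of the 3 genotypes r ranged from -0.162 to 0.279. With the replicate number as a block, 10, 8 and 6 of the 10 genes (9, 7 and 5 without Nfatc4) were called in the 3 comparisons, Nfatc3 in the third genotype vs. euploid being added (edgeR adjusted p = 0.043), and no other call changed with the pairing.

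At a fold enrichment of at least 4, the peaks naming the genes were 12, 0 and 0 for SMARCA2/4 in euploid, Ts65Dn and Ts65Dn;Brwd1+/-, and 8 and 6 for ATAC-seq in the last 2. With q under 0.05 and fold over 1.2, the 2 trisomic SMARCA2/4 lists held 0 peaks naming the genes, and the euploid list held 27 instead of 35. Requiring 50% overlap left 0 shared euploid SMARCA2/4 peaks. These counts are fewer by construction. Depth limits Nfatc4 most, with 6 to 7 counts in euploid.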
